A study of Mus musculus with 10 samples.

Results

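The genes described here encode the subunits and cofactors of Polycomb repressive complex 2 (PRC2). They are Ezh1, Ezh2, Suz12, Eed, Jarid2, Mtf2, Phf19, Rbbp4 and Rbbp7, chosen by name. All 9 were found among the 24370 genes of the expression table, and all 9 were among the 14706 genes kept for testing. Their messenger RNA was measured in 5 groups of mouse embryonic stem cells (ESCs), with 2 libraries per group and 10 in all. The labels give the line as J1, and the study's methods name another line, E3, for overexpression. The libraries labelled Dux KD-Usp17le OE came from cells that carried a short hairpin RNA targeting Dux, which encodes a transcription factor of the early embryo, and then received a plasmid expressing Usp17le, a deubiquitinase gene. Usp17le OE-Dux KD cells received the plasmid first and the hairpin afterwards. Usp17le OE cells received the plasmid alone, Dux KD cells received the hairpin alone, and WT cells received neither. Controls with an empty plasmid or a scrambled hairpin were not analysed here. Effects of transfection therefore cannot be told apart from those of plasmid or hairpin in any comparison with WT. For another hairpin of the study the methods describe puromycin selection and stable lines picked as clones, and for the plasmid they describe liposomal transfection, with no selection stated. Separate cultures are not stated for the libraries of a group, so each p reflects the spread between libraries that may be technical repeats.

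PRC2 places methyl groups on lysine 27 of histone H3 (H3K27), a mark of silenced developmental genes in ESCs. Its core consists of a catalytic subunit, EZH1 or EZH2, together with SUZ12, the scaffold, EED, which binds the methylated mark, and a histone chaperone, RBBP4 or RBBP7. Alternative forms of the complex carry different cofactors. MTF2 and PHF19 are Polycomb-like proteins that take part in bringing PRC2 to CpG-rich DNA, whereas JARID2, usually with AEBP2, recognises ubiquitylated histone H2A. That ubiquitin mark is laid down by PRC1 and removed by histone deubiquitinases, the kind of enzyme that the study asks about in Usp17le.

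The promoter sequences of the 4 members that differed most between groups in opposite directions are shown for reference, because Suz12 and Mtf2 were higher and Ezh2 and Phf19 lower in Usp17le OE cells. They were chosen after their values were seen. Each is a window of 250 bases before to 50 bases after the annotated start, from RefSeq on GRCm38.p6 (the mm10 build), written 5′ to 3′ on the strand of the gene. All 9 members had such a window, and for Mtf2 the first of its 2 starts is shown. Capitals mark letters of an E2F motif, searched as TTTCCCGC, TTTGGCGC, TTTCGCGC or TTTGCCGC on both strands.
Suz12 (chr11:79992856-79993155, plus strand): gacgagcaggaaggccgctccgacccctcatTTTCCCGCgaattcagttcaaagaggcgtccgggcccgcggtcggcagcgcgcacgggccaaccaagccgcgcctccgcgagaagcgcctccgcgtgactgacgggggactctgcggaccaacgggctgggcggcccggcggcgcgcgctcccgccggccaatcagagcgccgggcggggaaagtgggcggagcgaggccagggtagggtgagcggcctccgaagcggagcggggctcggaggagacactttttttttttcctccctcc
Mtf2 (chr5:108065424-108065723, plus strand): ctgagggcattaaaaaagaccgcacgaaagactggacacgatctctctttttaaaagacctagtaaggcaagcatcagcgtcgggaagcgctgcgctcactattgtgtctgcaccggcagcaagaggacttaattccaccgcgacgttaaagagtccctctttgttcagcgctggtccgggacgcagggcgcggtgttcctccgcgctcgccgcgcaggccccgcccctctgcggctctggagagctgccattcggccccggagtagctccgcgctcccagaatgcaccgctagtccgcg
Ezh2 (chr6:47594981-47595280, minus strand): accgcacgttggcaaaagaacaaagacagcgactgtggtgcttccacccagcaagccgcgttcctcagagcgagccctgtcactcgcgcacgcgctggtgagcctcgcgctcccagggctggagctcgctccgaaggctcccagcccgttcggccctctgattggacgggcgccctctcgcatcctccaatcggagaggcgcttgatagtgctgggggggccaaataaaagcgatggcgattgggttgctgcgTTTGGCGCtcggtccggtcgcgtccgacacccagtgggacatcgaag
Phf19 (chr2:34913927-34914226, minus strand): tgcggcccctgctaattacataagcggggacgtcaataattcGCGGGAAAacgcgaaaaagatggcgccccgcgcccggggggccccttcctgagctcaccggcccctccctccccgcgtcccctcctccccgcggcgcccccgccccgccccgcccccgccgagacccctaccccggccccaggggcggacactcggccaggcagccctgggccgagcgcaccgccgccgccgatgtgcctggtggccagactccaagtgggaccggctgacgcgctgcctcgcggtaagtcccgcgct

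The E2F letters were present in 3 members, Suz12 (TTTCCCGC, first base at -219 from the start), Ezh2 (TTTGGCGC, at 4) and Phf19 (GCGGGAAA, the reverse strand, at -208). They were absent from the windows of the other members, Mtf2 included. Of 32851 windows of the same length, 744 (2.265%) held such letters. Each motif searched contains a CG, and these windows were not matched to the CG-rich windows of the members, so the share is no measure of enrichment. Of the 3 genes with these letters, Suz12 was higher and Ezh2 and Phf19 were lower in Usp17le OE cells than in WT. In Dux KD cells all 3 were higher than in WT in the deposited values, but Ezh2 was not after the scaling described below. Any part of these letters in the changes was not tested. The first windows of all 9 were rich in CG dinucleotides, with 41 in Suz12, 38 in Phf19, 31 in Ezh2, 30 in Mtf2 and 17 in Eed, the lowest, against a median of 7 over all windows. Jarid2, like Mtf2, had a second window, and a TATAAA motif was found there but in none of the first windows, and in 13.62% of all windows, whereas a CCAAT box was found in Suz12, Ezh2, Jarid2, Eed, Rbbp4, Rbbp7 and the second Mtf2 window, and in 37.41% of all windows. The motif letters overlap no other motif searched.

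Depth was 32188285 to 50457228 reads per library, and the members had 144 to 33988 reads each, with the lowest number for Phf19 in Usp17le OE cells. ESC markers were present throughout, with Pou5f1 at 1610 to 1827 TPM, and of 12 fibroblast markers Lum and Dcn were each listed at 0 in 8 of 10 libraries, Col1a1 stayed at 0.732 to 2.16 TPM, Pdgfrb at 2.23 to 6.87 TPM, Thy1 at 11.3 to 24.4 TPM and Vim at 130 to 213 TPM. Usp17le measured 0.941 and 1.63 TPM in libraries labelled Dux KD-Usp17le OE, 11.1 and 10.6 TPM in Usp17le OE-Dux KD, 28.7 and 35.6 TPM in Usp17le OE, 0.466 and 0.424 TPM in Dux KD and 1.77 and 0.649 TPM in WT. The libraries labelled Dux KD-Usp17le OE thus lay within the WT range of Usp17le, and every direction drawn from them below carries that limit. Dux had 6 and 2 reads in libraries labelled Dux KD-Usp17le OE, 15 and 16 in Usp17le OE-Dux KD, 80 and 75 in Usp17le OE, 4 and 0 for Dux KD, and 5 and 12 in WT. Its fall in Dux KD against WT did not pass the test (log2 change -0.98 ± 0.54 SE, limma adjusted p = 0.134). By the same test Dux was lower in Usp17le OE-Dux KD than in Usp17le OE (-1.97 ± 0.54, adjusted p = 0.00637). It was higher in Usp17le OE than in WT (2.88 ± 0.54, adjusted p = 4.38e-04).

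Values are in TPM, reads per gene length scaled to a fixed total per library, so levels can be compared between genes within a library. Each value is a share of that total, so a comparison between libraries also depends on the other genes. Because the total is fixed, the median gene itself was displaced between groups. Relative to WT the log2 shift of the median gene was 0.26 for Usp17le OE and 0.38 for Dux KD. It was 0.29 for Usp17le OE-Dux KD relative to Usp17le OE, and -0.10 for the libraries labelled Dux KD-Usp17le OE relative to Dux KD. Changes are therefore given as deposited and also after scaling each library to the median gene ("after scaling"). Genes shorter than 1000 bases took 35.7% and 34.7% of TPM in libraries labelled Dux KD-Usp17le OE, 30.6% and 32.1% in Usp17le OE-Dux KD, 42.4% and 39.5% in Usp17le OE, 31.3% and 28.5% for Dux KD, and 43.2% and 43.0% in WT. This share moves with the groups, so a correction for gene length was run as well. Tests are limma's moderated test on log2(TPM + 0.1), two-sided, with p adjusted by Benjamini-Hochberg across the genes tested, and a gene was called at an adjusted p under 0.05. In these bulk samples, fewer cells of a type and less RNA per cell cannot be told apart.

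Among the members, the 2 chaperones were the most abundant messages and Phf19 the least. Rbbp7 lay between 233 and 349 TPM and Rbbp4 between 249 and 308 TPM. Phf19 lay between 2.00 and 11.8 TPM and Ezh1 between 11.2 and 23.3 TPM. The span across the 10 libraries was widest for Phf19, whose highest library was 5.91 times its lowest, followed by Suz12 (3.19), Mtf2 (3.08), Jarid2 (2.57), Ezh1 (2.08), Ezh2 (1.98), Eed (1.73), Rbbp7 (1.50) and Rbbp4 (1.24). The summed level of all 9 was 1350 and 1354 TPM in libraries labelled Dux KD-Usp17le OE, 1619 and 1580 TPM in Usp17le OE-Dux KD, 1479 and 1603 TPM in Usp17le OE, 1478 and 1528 TPM in Dux KD and 1037 and 1059 TPM in WT. WT had the lowest sum as deposited.

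**Figure D1:**
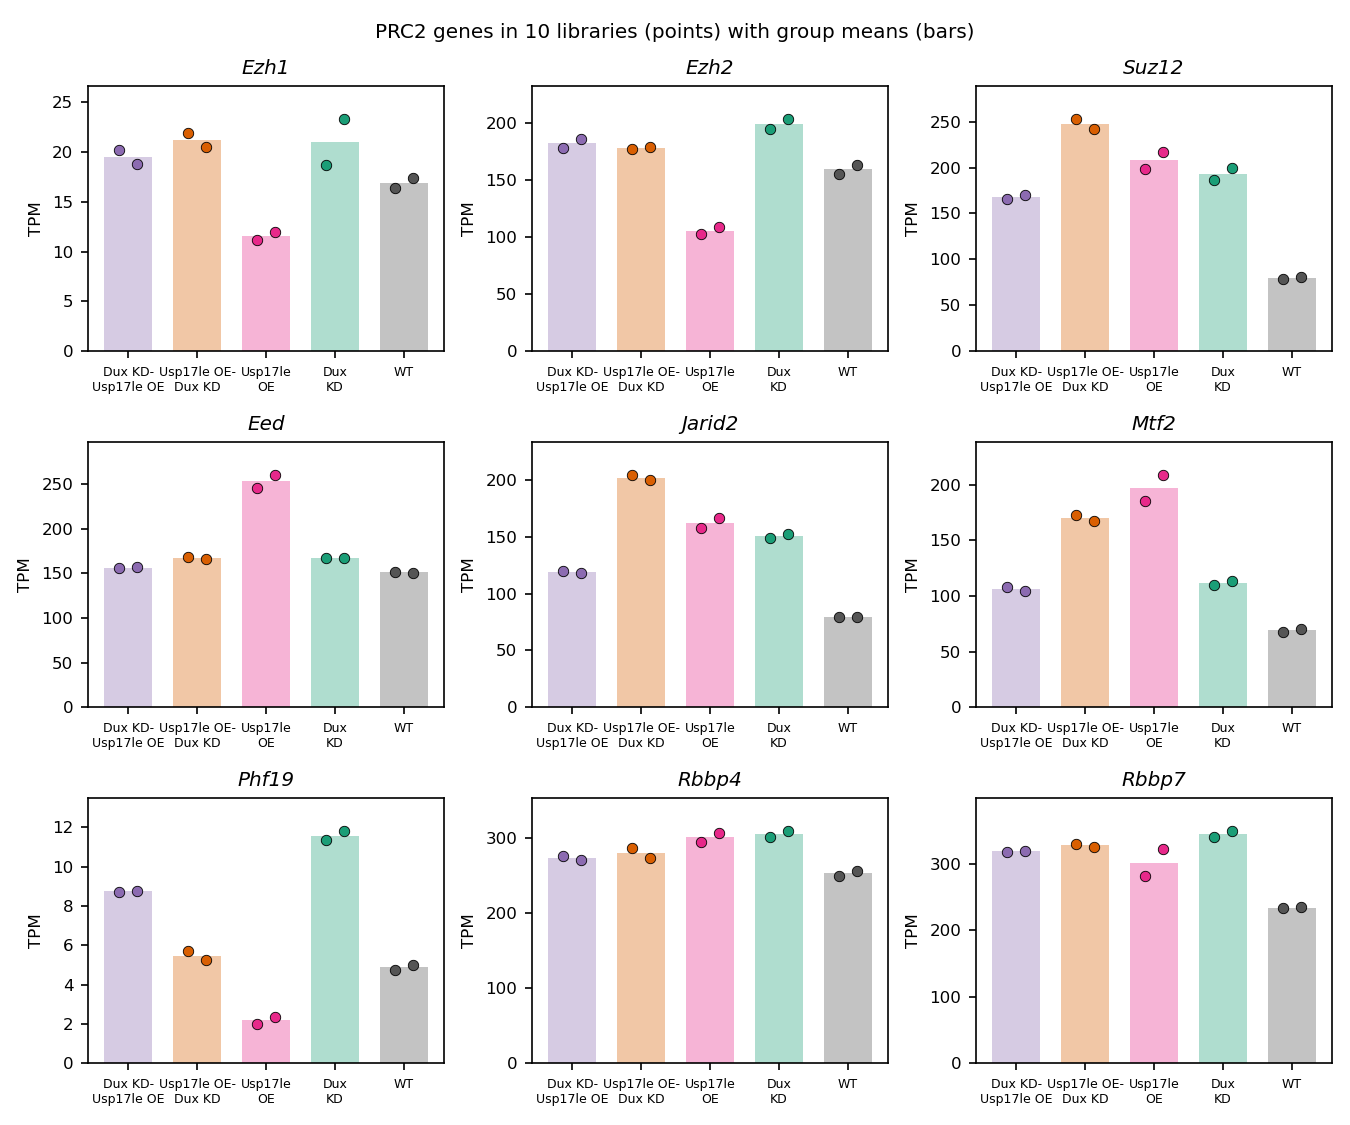
TPM (y axis, from 0) of each of the 9 PRC2 genes in the 5 groups (x axis), with 1 point per library and a bar at the group mean. Ezh1, Ezh2 and Phf19 were lowest in Usp17le OE, where Phf19 had 2.00 and 2.36 TPM, whereas Suz12, Jarid2 and Mtf2 were lowest in WT and Eed was highest in Usp17le OE.

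The catalytic subunits Ezh1 and Ezh2 were both lowest in Usp17le OE cells. Ezh2 (chr6:47530139-47595341), the main methyltransferase of dividing cells, had 178 and 186 TPM in libraries labelled Dux KD-Usp17le OE, 177 and 179 TPM in Usp17le OE-Dux KD, 103 and 109 TPM in Usp17le OE, 195 and 203 TPM in Dux KD and 155 and 164 TPM in WT. Both Usp17le OE libraries lay below every other library. Ezh2 fell by 0.59 ± 0.05 (log2, SE, adjusted p = 6.63e-07) in Usp17le OE against WT, and by 0.86 after scaling. Ezh1 (chr11:101191115-101226463), a less active paralog that is best known from non-dividing cells, had 20.2 and 18.7 TPM in libraries labelled Dux KD-Usp17le OE, 21.9 and 20.4 TPM in Usp17le OE-Dux KD, 11.2 and 12.0 TPM in Usp17le OE, 18.7 and 23.3 TPM in Dux KD and 16.3 and 17.4 TPM in WT. It was again lowest in Usp17le OE, while the range of Dux KD overlapped that of each other group with the hairpin. Its log2 change in Usp17le OE against WT was -0.54 ± 0.10 (adjusted p = 5.89e-04), and -0.80 after scaling. Ezh2 made up 89.8% and 90.9% of the summed Ezh1 and Ezh2 message in libraries labelled Dux KD-Usp17le OE, 89.0% and 89.8% in Usp17le OE-Dux KD, 90.2% and 90.1% in Usp17le OE, 91.2% and 89.7% for Dux KD, and 90.5% and 90.4% in WT. The balance of the paralogs thus moved by little while their sum was 114 and 121 TPM in Usp17le OE and 172 and 181 TPM in WT.

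Suz12 and Eed, which the catalytic subunits need for activity, went the other way in Usp17le OE cells. Suz12 (chr11:79993106-80034123) had 166 and 170.1 TPM in libraries labelled Dux KD-Usp17le OE, 253 and 242 TPM in Usp17le OE-Dux KD, 198 and 217 TPM in Usp17le OE, 186 and 199 TPM in Dux KD and 79.1 and 81.2 TPM in WT. Every transfected library had more Suz12 than either WT library, and among the transfected groups Usp17le OE and Dux KD overlapped. In Usp17le OE against WT its log2 change was 1.37 ± 0.06 (2.59-fold, adjusted p = 1e-09), and 1.11 after scaling. Eed (chr7:89954654-89980983) had 156 and 157 TPM in libraries labelled Dux KD-Usp17le OE, 169 and 167 TPM in Usp17le OE-Dux KD, 246 and 260.0 TPM in Usp17le OE, 167 and 167 TPM in Dux KD and 151.4 and 150.6 TPM in WT. It stood apart in Usp17le OE alone, with the next highest library at 169 TPM. Its log2 change in Usp17le OE against WT was 0.74 ± 0.05 (1.68-fold, adjusted p = 2.8e-08), and 0.48 after scaling.

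The opposite movement of core subunits is visible within single libraries, where scaling cancels. The ratio of Suz12 to Ezh2 TPM was 0.934 and 0.913 in libraries labelled Dux KD-Usp17le OE, 1.42 and 1.35 in Usp17le OE-Dux KD, 1.93 and 1.99 in Usp17le OE, 0.958 and 0.980 for Dux KD, and 0.509 and 0.496 in WT. Suz12 message was thus below Ezh2 message in WT and above it in every library of the groups that received the plasmid first or alone. The ratio of Eed to Ezh2 TPM was 2.40 and 2.39 in Usp17le OE, against 0.974 and 0.920 in WT. In the libraries of the other 3 groups it lay between 0.822 and 0.950. After the correction for gene length Suz12 to Ezh2 was 2.00 and 2.05 in Usp17le OE and 0.553 and 0.537 in WT, and Eed to Ezh2 was 2.31 and 2.32 in Usp17le OE and 0.923 and 0.875 in WT.

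The Polycomb-like cofactors Mtf2 and Phf19, which occupy the same position on SUZ12, moved in opposite directions in Usp17le OE cells. Mtf2 (chr5:108065674-108109004) had 108 and 104 TPM in libraries labelled Dux KD-Usp17le OE, 172 and 168 TPM in Usp17le OE-Dux KD, 185 and 208 TPM in Usp17le OE, 109 and 113 TPM in Dux KD and 67.8 and 70.4 TPM in WT. No pair of groups overlapped, and Usp17le OE was highest. Its log2 change in Usp17le OE against WT was 1.51 ± 0.06 (2.84-fold, adjusted p = 8.4e-10), the largest rise among the members, and 1.24 after scaling. Phf19 (chr2:34893757-34914026) had 8.72 and 8.76 TPM in libraries labelled Dux KD-Usp17le OE, 5.71 and 5.25 TPM in Usp17le OE-Dux KD, 2.00 and 2.36 TPM in Usp17le OE, 11.3 and 11.8 TPM in Dux KD and 4.75 and 5.01 TPM in WT. The 5 groups again did not overlap, with Dux KD highest and Usp17le OE lowest. The log2 change in Usp17le OE against WT was -1.13 ± 0.12 (adjusted p = 5.08e-06), and -1.39 after scaling. The ratio of Mtf2 to Phf19 TPM was 12.3 and 11.9 in libraries labelled Dux KD-Usp17le OE, 30.2 and 31.9 in Usp17le OE-Dux KD, 92.6 and 88.2 in Usp17le OE, 9.65 and 9.61 for Dux KD, and 14.3 and 14.1 in WT. Of the summed message of the 3 Polycomb-like genes Mtf2, Phf19 and Phf1, Phf19 accounted for 1.05% and 1.11% in Usp17le OE, against 6.44% and 6.58% in WT, and for 9.30% and 9.33% in Dux KD.

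Jarid2 (chr13:44729474-44921643), which links PRC2 to ubiquitylated H2A, had 119.5 and 118.5 TPM in libraries labelled Dux KD-Usp17le OE, 204 and 199.8 TPM in Usp17le OE-Dux KD, 158 and 167 TPM in Usp17le OE, 149 and 152 TPM in Dux KD and 79.7 and 79.3 TPM in WT. All groups were separate, with Usp17le OE-Dux KD highest and WT lowest. Jarid2 changed by 1.03 ± 0.05 (log2, 2.04-fold, adjusted p = 2.9e-09) in Usp17le OE against WT, and by 0.77 after scaling. It rose less than Mtf2 there, and the ratio of Jarid2 to Mtf2 TPM was 0.854 and 0.800 in Usp17le OE, against 1.18 and 1.13 in WT. In Dux KD this ratio was 1.36 and 1.34, above WT.

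The histone chaperones Rbbp4 and Rbbp7, which also serve chromatin complexes other than PRC2, varied least. Rbbp4 (chr4:129307100-129335370) had 276 and 271 TPM in libraries labelled Dux KD-Usp17le OE, 286 and 273 TPM in Usp17le OE-Dux KD, 294 and 306 TPM in Usp17le OE, 301 and 308 TPM in Dux KD and 249 and 256 TPM in WT. As deposited it was higher in Usp17le OE than in WT (log2 change 0.25 ± 0.04, adjusted p = 3.1e-04), but after scaling the value was -0.01 (adjusted p = 0.719). Rbbp7 (chrX:162760402-162779092) had 318 and 319 TPM in libraries labelled Dux KD-Usp17le OE, 330.3 and 326 TPM in Usp17le OE-Dux KD, 282 and 322 TPM in Usp17le OE, 341 and 349 TPM in Dux KD and 233 and 235 TPM in WT. The Usp17le OE libraries of Rbbp7 lay further apart than those of any other group. The ratio of Rbbp7 to Rbbp4 TPM was 1.15 and 1.18 in libraries labelled Dux KD-Usp17le OE, 1.15 and 1.19 in Usp17le OE-Dux KD, 0.956 and 1.05 in Usp17le OE, 1.13 and 1.13 for Dux KD, and 0.935 and 0.920 in WT. It was therefore above 1 in all 6 libraries with the hairpin and below 1 in WT, and it lay on both sides of 1 in Usp17le OE. After the correction for gene length the WT ratios were 0.832 and 0.824 and the same order held.

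**Figure D2:**
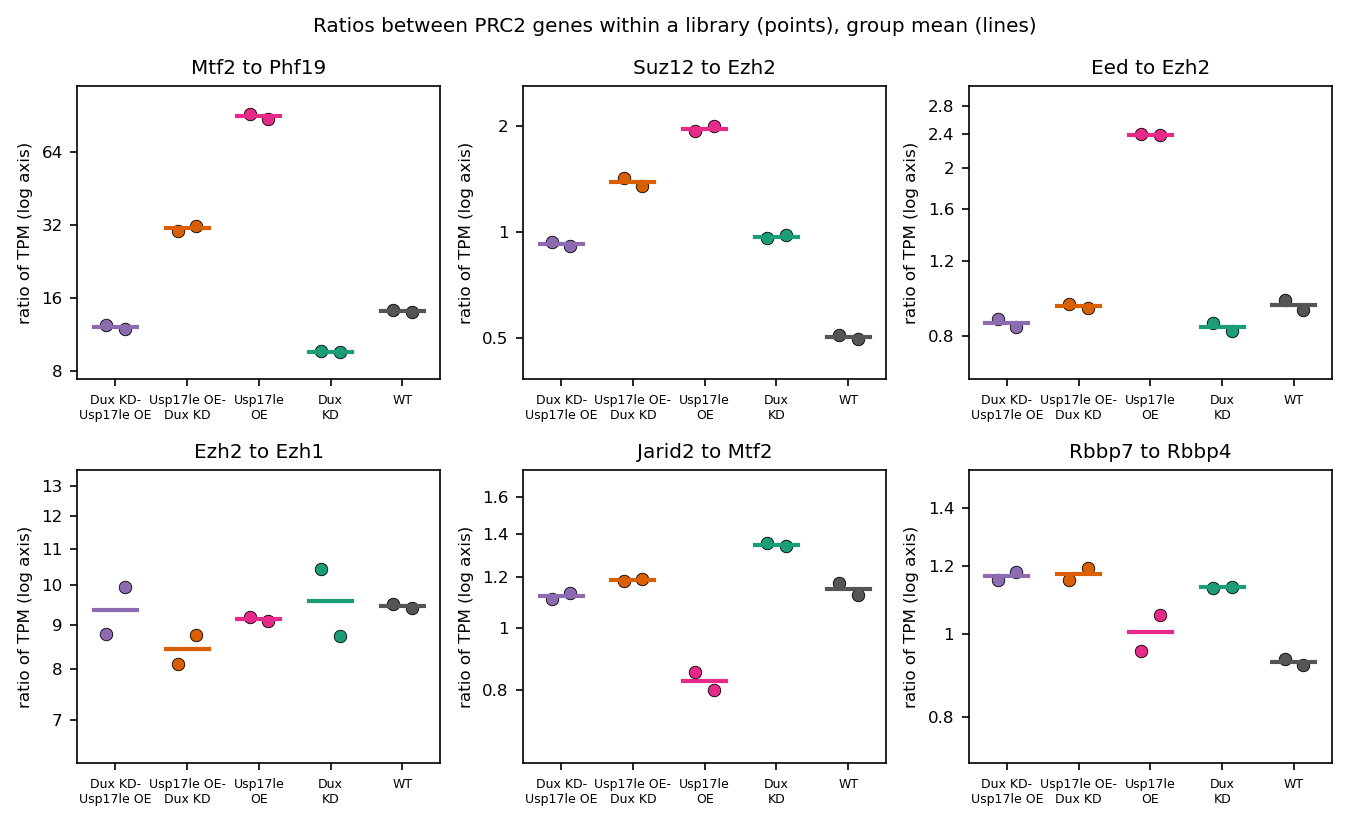
Ratio of TPM between pairs of PRC2 genes (y axis, log scale) within each library (points) of the 5 groups (x axis), with a line at the group mean. Mtf2 to Phf19 reached 92.6 and 88.2 in Usp17le OE against 14.3 and 14.1 in WT, Suz12 to Ezh2 reached 1.93 and 1.99 against 0.509 and 0.496, and Ezh2 to Ezh1 overlapped across groups.

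The comparison of Usp17le OE with WT asks what the plasmid changed in otherwise unmodified cells. Of the 9 members, 6 were called higher (Suz12, Eed, Jarid2, Mtf2, Rbbp4 and Rbbp7) and 3 lower (Ezh1, Ezh2 and Phf19). Calls were common among all genes tested, with 45.5% called higher and 20.9% lower, so the number of members called does not set them apart. After scaling, 5 were higher, 3 lower and Rbbp4 was not called, beside 33.0% of all genes called higher and 33.0% lower. The median log2 change of the members was 0.36, beside 0.26 over all genes, and 0.10 beside 0 after scaling. The log2 changes of the members ran from -1.13 for Phf19 to 1.51 for Mtf2. All 9 calls were kept whichever library was left out. Rbbp7 was close to the threshold after scaling (0.10 ± 0.04, adjusted p = 0.0439).

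The comparison of Dux KD with WT asks what the hairpin changed without the plasmid. Usp17le message was itself lower in Dux KD (log2 change -1.12 ± 0.39, limma adjusted p = 0.0322), with 17 and 20 reads against 70 and 28 in WT. The hairpin and the lower Usp17le level therefore cannot be told apart in this comparison. As deposited, all 9 members were called higher, where 51.4% of all genes tested were called higher and 10.7% lower. Suz12 (1.26 ± 0.06, adjusted p = 7.13e-09), Phf19 (1.23 ± 0.12, adjusted p = 2.52e-06), Jarid2 (0.92 ± 0.05, adjusted p = 1.64e-08) and Mtf2 (0.69 ± 0.06, adjusted p = 7.06e-07) changed most, and remained called higher after scaling, at 0.86, 0.84, 0.52 and 0.29. Rbbp7 was also higher on both scales (0.56, and 0.16 after scaling). The rest depended on the scale. Eed was 0.14 higher as deposited and 0.26 lower after scaling, and Rbbp4 0.27 higher and 0.13 lower, each passing the test in both directions. Ezh1 (0.30) and Ezh2 (0.32) were called higher as deposited but had -0.10 and -0.08 after scaling, not called. After scaling 5 members were thus higher and 2 lower, beside 28.8% of all genes higher and 25.3% lower. After the correction for gene length Mtf2, at 0.06 (adjusted p = 0.248), was no longer called. Ezh1 (-0.27, adjusted p = 0.0259) and Ezh2 (-0.11, adjusted p = 0.0357) were then called lower. The call for Eed was lost without either WT library, with adjusted p of 0.0567 and 0.0691, and the call for Ezh1 was lost without WT replicate 1 (adjusted p = 0.121) or Dux KD replicate 2 (log2 change 0.15, adjusted p = 0.262). Both calls were also lost without limma's trend and robust options (adjusted p = 0.0503 for Eed and 0.0561 for Ezh1).

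Both comparisons used the same WT libraries, so their shared changes are set side by side without a test of overlap. Suz12 differed from WT by 1.37 in Usp17le OE cells and by 1.26 in Dux KD cells. For Jarid2 the values were 1.03 in Usp17le OE and 0.92 in Dux KD. Mtf2 differed by 1.51 in Usp17le OE and 0.69 in Dux KD. Phf19 was the member with the largest changes of opposite sign, at -1.13 in Usp17le OE and 1.23 in Dux KD.

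The comparison of Usp17le OE-Dux KD with Usp17le OE asks what changed when the hairpin followed the plasmid. Usp17le message was itself lower in Usp17le OE-Dux KD (log2 change -1.55 ± 0.39, limma adjusted p = 0.0069). The hairpin and the lower Usp17le level therefore cannot be told apart here. Ezh1 (0.86 ± 0.10, adjusted p = 1.27e-05), Ezh2 (0.75 ± 0.05, adjusted p = 9.48e-08) and Phf19 (1.29 ± 0.12, adjusted p = 1.66e-06), the members that were low in Usp17le OE, were higher with the hairpin, and so they were after scaling (0.56, 0.45 and 1.00). Eed fell by 0.59 ± 0.05 (adjusted p = 2.2e-07), and by 0.90 after scaling. Mtf2 fell by 0.21 ± 0.06 (adjusted p = 0.00867), and by 0.51 after scaling. Suz12 and Jarid2 were higher as deposited (0.25 and 0.32) but not called after scaling (-0.05 and 0.01), and lower after the correction for gene length (-0.20 and -0.22). In all, 5 members were called higher, 2 lower and 2 not (Rbbp4 and Rbbp7), beside 45.7% of all genes tested higher and 18.6% lower. After scaling 3 were higher and 4 lower, beside 29.7% and 30.7% of all genes, and the lower ones included Rbbp4 (-0.41) and Rbbp7 (-0.18). The call for Mtf2 as deposited was lost without Usp17le OE replicate 2 (log2 change -0.12, adjusted p = 0.09) or Usp17le OE-Dux KD replicate 2 (adjusted p = 0.0574).

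Between the libraries labelled Dux KD-Usp17le OE and Dux KD, 3 members were called, all lower. Jarid2 was lower by 0.34 ± 0.05 (log2, adjusted p = 0.00389) and remained called after scaling (-0.24, adjusted p = 0.00628). Suz12 (-0.20, adjusted p = 0.0428) and Rbbp4 (-0.16, adjusted p = 0.042) passed the test as deposited but not after scaling (adjusted p = 0.127 and 0.303). The other 6 members were not called. Of all genes tested 2.88% were called higher and 8.30% lower, and 3.42% and 1.97% after scaling. Phf19 had -0.40 ± 0.12 (adjusted p = 0.0581), and was called lower with a pseudocount of 1 (adjusted p = 0.0426), in a limma fit of these groups alone (0.0383) and by limma-voom on recovered reads (0.00353). Without limma's trend and robust options none of the 9 was called, and Jarid2 had an adjusted p of 0.0789. With Usp17le itself in the WT range in these libraries, the comparison holds little added Usp17le message. The calls for Suz12 and Rbbp4 were each lost in most fits that left out 1 library, and those fits called between 1 and 4 members.

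**Figure D3:**
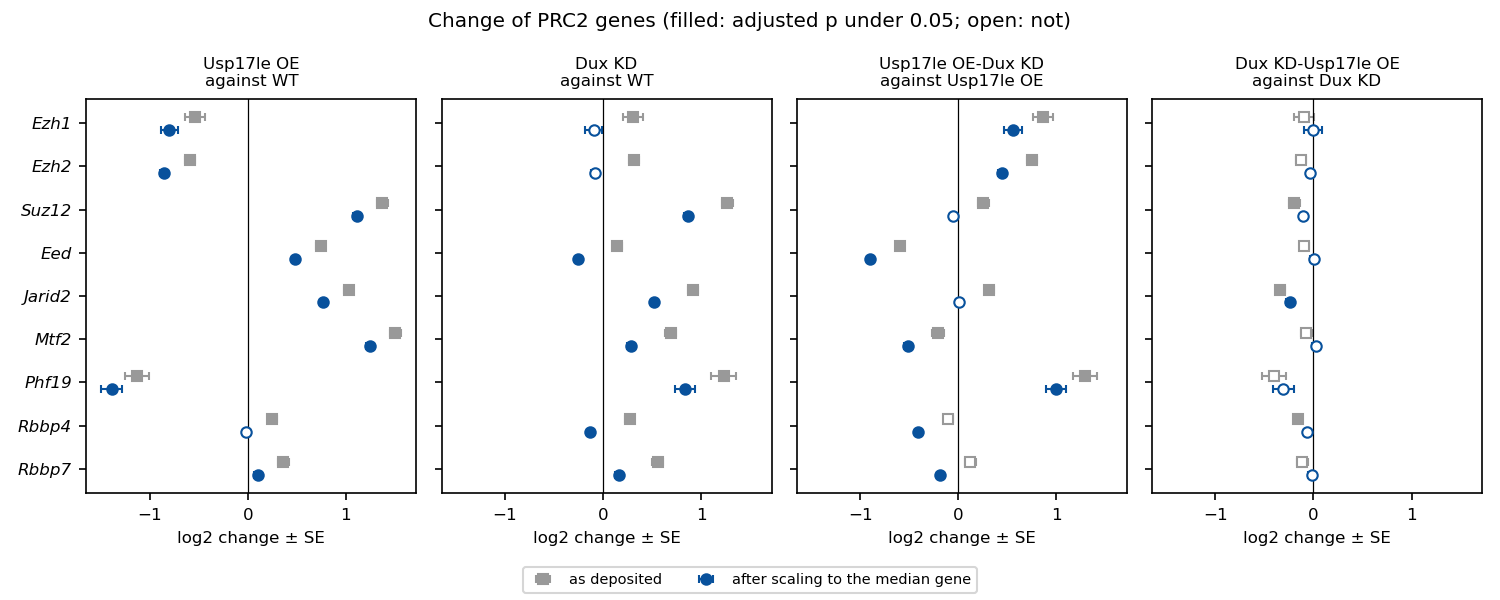
Log2 change with its SE (x axis) of the 9 PRC2 genes (rows) in 4 comparisons, as deposited (squares) and after scaling to the median gene (circles), filled where the adjusted p was under 0.05. In Usp17le OE against WT the members spread from -1.13 for Phf19 to 1.51 for Mtf2, and in libraries labelled Dux KD-Usp17le OE against Dux KD only Jarid2 was filled on both scales.

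The groups with both constructs were also set against WT. In Usp17le OE-Dux KD, 8 members were called higher than WT as deposited, beside 59.5% of all genes (11.0% were lower), and Phf19 was not (0.16 ± 0.12, adjusted p = 0.256). After scaling, Suz12 (1.06), Jarid2 (0.78) and Mtf2 (0.73) were still higher, 5 members were lower and Rbbp7 was not called, beside 30.1% of all genes higher and 31.1% lower. The 5 lower members were Ezh1 (-0.24), Ezh2 (-0.41), Eed (-0.42), Phf19 (-0.39) and Rbbp4 (-0.42). In libraries labelled Dux KD-Usp17le OE, 7 were called higher than WT, beside 44.8% of all genes (7.62% were lower). After scaling, where 24.0% of all genes were higher and 20.9% lower, Suz12 (0.76), Phf19 (0.53), Mtf2 (0.31), Jarid2 (0.28) and Rbbp7 (0.14) were higher and Ezh2 (-0.11), Eed (-0.26) and Rbbp4 (-0.19) lower. Suz12, Jarid2 and Mtf2 were thus above WT in all 4 transfected groups on both scales. After the correction for gene length, however, Mtf2 in Dux KD and Jarid2 in libraries labelled Dux KD-Usp17le OE (0.06, adjusted p = 0.22) were not called. The number of members called higher in Usp17le OE-Dux KD was 5 as deposited without WT replicate 1 or without Usp17le OE-Dux KD replicate 1.

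The order in which plasmid and hairpin were added was compared directly. The libraries labelled Dux KD-Usp17le OE had less Jarid2 (-0.76 ± 0.05, adjusted p = 5.22e-07), Mtf2 (-0.68 ± 0.06, adjusted p = 6.03e-06) and Suz12 (-0.56 ± 0.06, adjusted p = 1.66e-05) than Usp17le OE-Dux KD, and more Phf19 (0.67 ± 0.12, adjusted p = 0.00117). These 4 calls held after scaling, at -0.50, -0.42, -0.30 and 0.92. As deposited 1 member was thus called higher and 3 lower, beside 7.97% and 37.4% of all genes. After scaling, where 23.6% of all genes were higher and 15.7% lower, Ezh2 (0.29), Eed (0.16), Rbbp4 (0.23) and Rbbp7 (0.22) were called higher too. Usp17le was 11.1 and 10.6 TPM in one group and 0.941 and 1.63 TPM in the other, so order and Usp17le level cannot be told apart.

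Whether the effect of 1 construct depended on the other was tested as a difference of effects. The hairpin's effect in plasmid-carrying cells (Usp17le OE-Dux KD against Usp17le OE) differed from its effect without the plasmid (Dux KD against WT) for 8 of 9 members, 2 higher and 6 lower, beside 15.8% and 28.2% of all genes. It was higher for Ezh1 (0.56) and Ezh2 (0.44), and lower for Suz12 (-1.01), Mtf2 (-0.90), Eed (-0.74), Jarid2 (-0.60), Rbbp7 (-0.44) and Rbbp4 (-0.37). Phf19 was the exception, with hairpin effects of 1.29 with and 1.23 without the plasmid and a difference of 0.06 ± 0.18 (adjusted p = 0.792). After scaling the same 8 were called in the same directions, beside 20.2% of all genes higher and 24.5% lower. Usp17le was lower in Usp17le OE-Dux KD than in Usp17le OE, so hairpin and Usp17le level cannot be told apart in the hairpin difference. The plasmid's effect in hairpin-carrying cells differed from its effect in WT for all 9 members, 3 higher and 6 lower, beside 15.2% and 42.7% of all genes. After scaling 3 were higher and 4 lower, beside 28.6% and 27.8% of all genes, and Rbbp4 and Rbbp7 were not called. This difference rests on the libraries in which Usp17le was in the WT range.

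Other genes of the Polycomb system were counted from fixed lists of related genes. Of 6 further PRC2 genes, 5 were higher and 1 lower in Usp17le OE against WT, on both scales, beside 45.5% and 20.9% of all genes (33.0% and 33.0% after scaling). Their median log2 change was 1.35, beside 0.26 over all genes. Epop (listed as E130012A19Rik), which links PRC2 to elongin, reached 299.5 and 306 TPM in Usp17le OE against 64.0 and 65.0 TPM in WT, a log2 change of 2.23 ± 0.05 (adjusted p = 3.47e-12). Ezhip (listed as AU022751), an inhibitor of EZH2, had 16.0 and 16.7 TPM in Usp17le OE against 3.73 and 4.40 TPM in WT (1.99 ± 0.11, adjusted p = 1.13e-08). Lcorl, which is related to the PRC2 cofactor LCOR, fell by 0.76 ± 0.23 (adjusted p = 0.0108). The other 3 that rose, named after their values were seen, were Phf1 (1.41), Aebp2 (1.29) and Lcor (0.93). In Dux KD against WT, 4 of the 6 were higher as deposited (51.4% of all genes) and 2 after scaling (28.8%), Ezhip (0.90, and 0.51 after scaling) and Aebp2 (0.89, and 0.50). Aebp2, the partner of JARID2, had 32.9 and 34.6 TPM in Usp17le OE, 26.3 and 24.8 TPM in Dux KD and 13.7 and 13.7 TPM in WT. In Usp17le OE-Dux KD relative to Usp17le OE, Epop fell by 0.63 ± 0.05 (adjusted p = 1.5e-07).

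PRC1, which ubiquitylates H2A, was represented by 26 genes. With the plasmid alone 15 were higher and 6 lower, beside 45.5% and 20.9% of all genes, and 11 and 8 after scaling, beside 33.0% and 33.0%. The median log2 change was 0.38, beside 0.26 over all genes. Bmi1, which pairs with the RING1 ligases, rose by 1.70 ± 0.16 and Bcorl1 by 1.21 ± 0.17, whereas the chromodomain gene Cbx8 (-1.03 ± 0.15) fell. In Dux KD against WT 19 were higher and 4 lower (51.4% and 10.7% of all genes), and 13 and 5 after scaling (28.8% and 25.3%), with Auts2 (1.33) and L3mbtl2 (1.29) rising and Cbx8 (-0.54) and Pcgf5 (-0.46) falling. In Usp17le OE-Dux KD relative to Usp17le OE 19 were higher and 2 lower (45.7% and 18.6% of all genes), and 11 and 5 after scaling (29.7% and 30.7%). Bcor (1.46) rose and Bmi1 (-0.55) and Yaf2 (-0.35) fell. In libraries labelled Dux KD-Usp17le OE against Dux KD 3 were called, all lower (8.30% of all genes), and after scaling 1 (1.97%), L3mbtl2 (-0.32 as deposited).

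The enzymes that remove the 2 marks were also counted. Of 3 genes of the H3K27 demethylase family, Kdm6a was higher (1.31 ± 0.13, adjusted p = 1.52e-06) and Kdm6b lower (-0.29 ± 0.08, adjusted p = 0.00505) in Usp17le OE against WT. After scaling both were still called (1.05 and -0.55), and Uty was called on neither scale. Of all genes 45.5% were higher and 20.9% lower, and 33.0% and 33.0% after scaling, so these counts do not set the family apart. Kdm6b had 10.3 and 9.99 TPM in Usp17le OE against 12.3 and 12.5 TPM in WT, and 27.8 and 27.4 TPM in Usp17le OE-Dux KD. In Dux KD against WT all 3 were higher on both scales (51.4% of all genes, and 28.8% after scaling), Kdm6a by 1.28 and Kdm6b by 0.84. Of 9 genes for H2A deubiquitinases and their partners, 8 were tested. Among them 4 were higher and none lower in Usp17le OE against WT as deposited (45.5% and 20.9% of all genes), and 3 and 3 after scaling (33.0% and 33.0%), led by Usp16 (1.66 ± 0.09) and Mysm1 (1.66 ± 0.13). In Dux KD against WT all 8 were higher on both scales, beside 51.4% of all genes as deposited and 28.8% after scaling, with the largest change in Usp7 (1.39 ± 0.05, and 0.99 after scaling).

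Rbbp4 and Rbbp7 also belong to NuRD, SIN3, NURF and CAF-1, and 15 genes were counted, made up of genes of these complexes and Hat1. Usp17le OE set against WT had 6 genes higher and 5 lower (45.5% and 20.9% of all genes), and 3 and 9 after scaling (33.0% and 33.0%), with Gatad2a (0.72) and Bptf (0.47) higher and Mta1 (-1.02) and Mta3 (-0.56) lower. In Dux KD against WT 14 were higher and none lower (51.4% and 10.7% of all genes), and 11 and 3 after scaling (28.8% and 25.3%), led by Bptf (1.27) and Chaf1b (1.01). In Usp17le OE-Dux KD relative to Usp17le OE 14 were higher and 1 lower (45.7% and 18.6% of all genes), and 12 and 2 after scaling (29.7% and 30.7%). Mta1 (1.25) and Gatad2b (1.23) rose and Sin3b fell by 0.20.

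Developmental regulators known as Polycomb targets in ESCs were mostly low, and 27 of 54 listed genes had enough message to be tested. The filter asked for 0.5 TPM in 2 libraries, so a target low elsewhere could pass through 1 group where it was high. A rise of such a target in that group is partly a product of the filter. With the plasmid alone, against WT, 12 were higher and 5 lower, beside 45.5% and 20.9% of all genes, and 10 and 8 of 26 tested after scaling, beside 33.0% and 33.0%. These shares lie near those of all genes. Gata3 (4.03 ± 0.40, adjusted p = 1.93e-06) and Cdx2 (2.97 ± 0.77, adjusted p = 0.00447) rose, while Lhx5 (-2.51 ± 0.51) and Nkx2-5 (-2.29 ± 0.30) fell. In Dux KD against WT 7 were higher and 2 lower as deposited (51.4% and 10.7% of all genes), and 3 and 6 after scaling (28.8% and 25.3%), so the balance of this list turned with the scale. Sox1 (1.31 ± 0.23) rose and Hoxb13 (-2.10 ± 0.29) fell on both scales. In Usp17le OE-Dux KD relative to Usp17le OE 12 were higher and 5 lower (45.7% and 18.6% of all genes), and 6 and 8 after scaling (29.7% and 30.7%), with Sox1 (2.92) and Irx3 (2.47) rising and Cdx2 (-1.90) and Gata3 (-1.60) falling. In libraries labelled Dux KD-Usp17le OE against Dux KD 1 target was called, higher (2.88% of all genes), and none after scaling (3.42%).

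**Figure D4:**
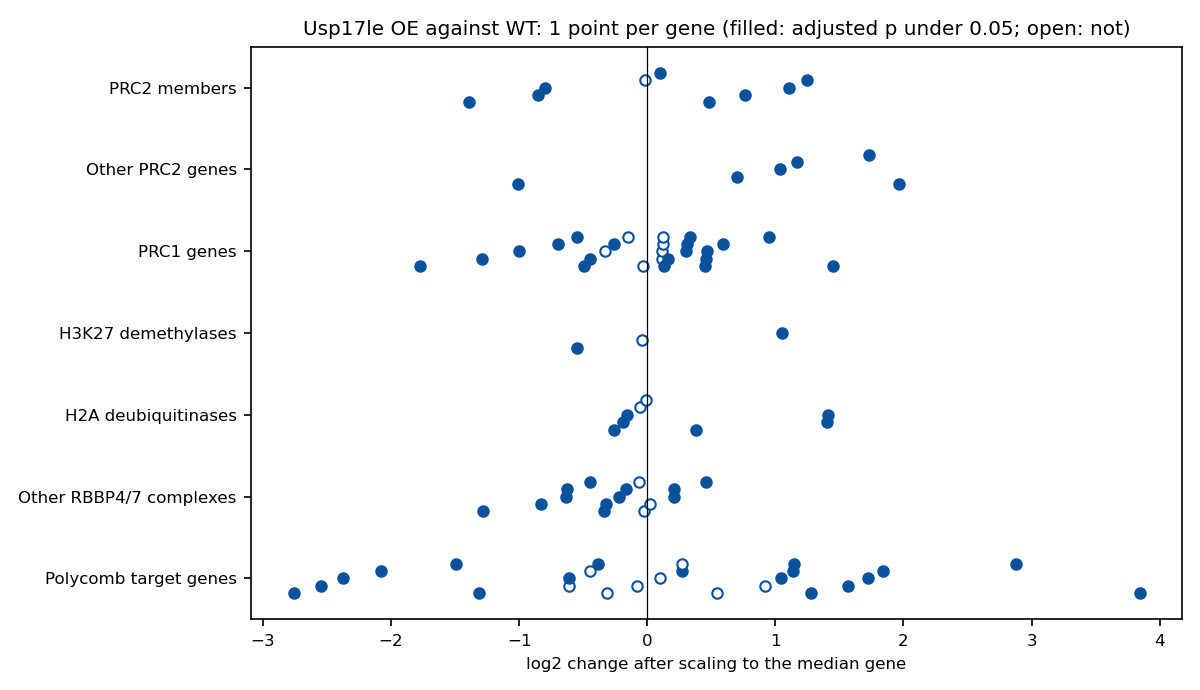
Log2 change after scaling in Usp17le OE against WT (x axis) of the tested genes of the 9 PRC2 members and 6 related lists (rows), with 1 point per gene, filled where the adjusted p was under 0.05. Members lay on both sides of 0, with 5 called higher and 3 lower, and 5 of 6 other PRC2 genes were called higher.

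PRC2 genes vary with the rate of cell division in many tissues, so the proliferation markers were set beside them. The summed level of 16 such genes was 3956 and 4100 TPM in libraries labelled Dux KD-Usp17le OE, 4470.1 and 4359 TPM in Usp17le OE-Dux KD, 2734 and 2914 TPM in Usp17le OE, 4602 and 4910 TPM in Dux KD and 2887 and 2913 TPM in WT. It was highest in the groups with the hairpin, as deposited. Ezh1 and Ezh2 were also above WT in those groups as deposited, but after scaling WT had the highest means, 20.6 for Ezh1 and 194.7 for Ezh2. In Usp17le OE against WT 5 were higher and 7 lower (45.5% and 20.9% of all genes), and 2 and 11 after scaling (33.0% and 33.0%). Against WT, Dux KD had 15 higher and none lower (51.4% and 10.7%), and 12 and 3 after scaling (28.8% and 25.3%). Against WT, E2f1 in Usp17le OE changed by -0.45 ± 0.06 and Cdt1 by -0.42 ± 0.06, in the direction of Ezh2, whereas Ccne2 (1.23 ± 0.20) and Cdk1 (0.78 ± 0.05) were higher. The part of proliferation in the PRC2 changes was not tested. The summed fibroblast markers other than Vim were 25.6 to 26.7 TPM in libraries labelled Dux KD-Usp17le OE, 36.2 to 38.4 TPM in Usp17le OE-Dux KD, 18.0 to 18.3 TPM in Usp17le OE, 25.4 to 27.1 TPM in Dux KD and 23.1 to 23.7 TPM in WT, most of it Thy1.

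Patterns across the 10 libraries are described by Pearson's r of log2 values after scaling, with no test, since libraries of a group and their depth are shared. Ezh1 and Ezh2 followed each other (r = 0.95), as did Suz12 and Jarid2 (0.93). Ezh2 and Mtf2 ran opposite (-0.98), and so did Ezh1 and Mtf2 (-0.92). Among 14650 genes outside the members, those most like Ezh1 were Sowaha (0.984) and Slc44a2 (0.984), most like Ezh2 were Arrdc2 (0.996) and Ldha (0.996), most like Suz12 were Sesn2 (0.997) and Ppp1r10 (0.995), and most like Eed were Dusp12 (0.994) and Grpel1 (0.994). Sowaha was low, at 0.0287 to 2.14 TPM. With 5 groups of near-identical pairs, high values of r are common.

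Reads were counted without regard to strand, and some members share annotated exon bases with a gene on the opposite strand, where reads may not be assignable. The share of exon bases was 8.94% for Rbbp4 with Sync and 9.10% with Gm26722, 6.93% for Mtf2 with Tmed5, 6.82% for Eed with E230029C05Rik, 5.98% for Rbbp7 with Txlng, 3.60% for Suz12 with Gm26563 and 2.61% for Ezh2 with Gm26625, on the GENCODE annotation of GRCm38. No such overlap was found for Ezh1, Jarid2 or Phf19. The deposited gene lengths were shorter than these exon bases, at 4407 against 8744 for Rbbp4 and 2060 against 3828 for Eed. The shares may therefore not apply to the gene models that the authors counted. Messenger RNA was measured here and neither the proteins nor the histone marks.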

How the data were processed

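Polyadenylated RNA of 10 libraries was sequenced, and the authors deposited 1 TPM value per gene and library with gene lengths. The authors used Trim Galore for trimming, HISAT2 for alignment to mm10 and featureCounts at default settings for uniquely mapped reads. The authors named DESeq2 for their own comparisons. Versions and annotation are not given in the sources used here. Reads that map to several places were dropped, which affects copies such as Usp17le and Dux. Depth, 32188285 to 50457228 reads per library, was taken from the product of TPM and gene length. Divided by a step found for each library, this product was whole (tolerance 0.01) in 100% of values.

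Genes reaching 0.5 TPM in 2 libraries or more (14706) were fitted as log2(TPM + 0.1) with limma 3.58.1 and statmod 1.5.0 under R 4.3.3. The fit had a mean for each group, 5 residual degrees of freedom, and the trend and robust options. Because of the pseudocount, changes of low genes are understated. The comparisons were 7 between groups and 2 differences of effects. A gene was called at an adjusted p under 0.05. The script was tested on simulated data. After scaling to the median ratio, 14659 genes passed the filter. Length correction centred each library on a smooth curve against log10 gene length (lowess span 0.3). Errors are SEs of the fit. Members and lists were chosen with earlier results of these data known. All 9 members are named. Of each other list, at most 2 genes that rose and 2 that fell are named per comparison, those with the largest changes relative to the median gene among genes called on both scales. Values of some genes that this rule names are not reported here.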

Additional observations from a re-analysis of the deposited data

Results flagged for a closer look

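The effect of the hairpin or plasmid on most members differed according to whether the other construct was present, by a test of the difference itself (limma, adjusted over all genes tested, 2 libraries per group). For the hairpin, the effect in Usp17le OE-Dux KD relative to Usp17le OE minus that in Dux KD against WT was 0.56 for Ezh1 (adjusted p = 0.00857), 0.44 for Ezh2 (4.67e-04), -1.01 for Suz12 (1.68e-06), -0.74 for Eed (3.55e-06), -0.60 for Jarid2 (2.19e-05), -0.90 for Mtf2 (7e-06), -0.37 for Rbbp4 (4.49e-04) and -0.44 for Rbbp7 (7.72e-04). Suz12 and Jarid2 were higher in Dux KD than in WT by 1.26 and 0.92 as deposited. In Usp17le OE-Dux KD they differed from Usp17le OE by 0.25 and 0.32 as deposited. After scaling the latter values were -0.05 and 0.01, neither of which was called. For Eed the effects were 0.14 and -0.59 as deposited, and -0.26 and -0.90 after scaling. Usp17le message was lower in Usp17le OE-Dux KD than in Usp17le OE, so hairpin and Usp17le level cannot be told apart in these differences.

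For the plasmid, the effect in libraries labelled Dux KD-Usp17le OE against Dux KD minus that in Usp17le OE against WT was 0.44 for Ezh1 (adjusted p = 0.0218), 0.47 for Ezh2 (1.58e-04), -1.57 for Suz12 (1.77e-08), -0.84 for Eed (4.31e-07), -1.37 for Jarid2 (1.52e-08), -1.58 for Mtf2 (2.98e-08), 0.73 for Phf19 (0.00342), -0.41 for Rbbp4 (1.33e-04) and -0.48 for Rbbp7 (2.33e-04). The median gene was displaced by -0.32 in this difference, and after scaling Rbbp4 (-0.05) and Rbbp7 (-0.12) were not called. The same difference for Usp17le message was -3.46 (adjusted p = 5.8e-04), where it was 0.941 and 1.63 TPM in libraries labelled Dux KD-Usp17le OE and 28.7 and 35.6 TPM in Usp17le OE. The part of Usp17le level in these differences was not tested.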

How the results depend on the processing

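With 2 libraries per group, small changes rest on few values. With all libraries kept, the number of members called stayed within 1.5 times in most fits. Exceptions were the libraries labelled Dux KD-Usp17le OE against Dux KD, with 3 called in the report but 1 with no filter on low values, after scaling or after the correction for gene length, and 0 without the trend and robust options (limma, where Jarid2 had an adjusted p of 0.0789), and the same libraries against Usp17le OE-Dux KD, with 4 in the report but 8 after scaling and 7 after the correction for gene length. Without those options the calls for Ezh1 (adjusted p = 0.0561) and Eed (0.0503) in Dux KD against WT, Ezh2 (0.0565) and Rbbp4 (0.0523) in Usp17le OE-Dux KD against WT, Rbbp4 in libraries labelled Dux KD-Usp17le OE against WT (0.136) and Ezh1 in the difference of plasmid effects (0.056) were lost too. Leaving out 1 library gave 9 to 9 calls in Usp17le OE against WT, 7 to 9 in Dux KD against WT, 6 to 8 in Usp17le OE-Dux KD relative to Usp17le OE, 1 to 4 in libraries labelled Dux KD-Usp17le OE against Dux KD, 5 to 8 in Usp17le OE-Dux KD against WT, 5 to 7 in libraries labelled Dux KD-Usp17le OE against WT, 4 to 4 against Usp17le OE-Dux KD, 8 to 8 in the difference of hairpin effects and 8 to 9 in that of plasmid effects. Where a group then had 1 library, it was assumed to vary like the others. Where a direction turned after scaling, the value was -0.014 for Rbbp4 in Usp17le OE against WT; -0.095 for Ezh1, -0.082 for Ezh2, -0.26 for Eed and -0.13 for Rbbp4 in Dux KD against WT; -0.051 for Suz12 and -0.18 for Rbbp7 in Usp17le OE-Dux KD relative to Usp17le OE; 6e-04 for Eed and 0.024 for Mtf2 in libraries labelled Dux KD-Usp17le OE against Dux KD. Against WT, Usp17le OE-Dux KD turned to -0.24 for Ezh1, -0.41 for Ezh2, -0.42 for Eed, -0.39 for Phf19, -0.42 for Rbbp4 and -0.082 for Rbbp7, and the libraries labelled Dux KD-Usp17le OE to -0.098 for Ezh1, -0.11 for Ezh2, -0.26 for Eed and -0.19 for Rbbp4. Against Usp17le OE-Dux KD those libraries turned to 0.14 for Ezh1, 0.16 for Eed, 0.23 for Rbbp4 and 0.22 for Rbbp7. Each of these rests on the displaced median gene by construction. The correction for gene length turned directions with these values: -0.070 for Rbbp4 in Usp17le OE against WT; -0.27, -0.11, -0.17 and -0.31 for Ezh1, Ezh2, Eed and Rbbp4 in Dux KD; -0.20, -0.22 and -0.13 for Suz12, Jarid2 and Rbbp7 in Usp17le OE-Dux KD relative to Usp17le OE; 0.036 and 0.061 for Ezh1 and Mtf2 in libraries labelled Dux KD-Usp17le OE against Dux KD; -0.43, -0.40, -0.27, -0.54 and -0.63 for Ezh1, Ezh2, Eed, Phf19 and Rbbp4 in Usp17le OE-Dux KD against WT; -0.23, -0.13, -0.18 and -0.34 for Ezh1, Ezh2, Eed and Rbbp4 in libraries labelled Dux KD-Usp17le OE against WT; and 0.20, 0.089, 0.30 and 0.17 for Ezh1, Eed, Rbbp4 and Rbbp7 between the last groups, with 0.047 for Rbbp4 in the difference of plasmid effects. It put the log2 ratio of Ezh2 to Ezh1 at 0.0084 in Usp17le OE against WT and at 0.022 in Usp17le OE-Dux KD relative to Usp17le OE. A pseudocount of 1 turned Phf19 in the difference of hairpin effects to -0.069. Leaving out 1 library put that value between -0.051 (Usp17le OE replicate 1) and 0.18, Ezh1 in libraries labelled Dux KD-Usp17le OE against Dux KD at up to 0.061 (Dux KD replicate 2), and, against Usp17le OE-Dux KD, Rbbp4 between -0.066 and 0.0015 (Usp17le OE-Dux KD replicate 1) and Ezh2 between -0.0043 (without the labelled replicate 2) and 0.065. The log2 ratio of Ezh2 to Ezh1 turned to -0.11 in Dux KD against WT without Dux KD replicate 1, and to 0.098 and 0.060 in libraries labelled Dux KD-Usp17le OE against Dux KD without Dux KD replicate 1 or their own replicate 1, with a lowest value of -0.16. For the directions turned by other settings than scaling, the cause was not tested. Same-numbered replicates did not deviate together (correlations of -0.05 to 0.05 over 10 pairs of groups, 0 above 0.1), and a replicate block moved none of the counts past 1.5 times (9 in Usp17le OE against WT) and lost 1 call, Rbbp4 in libraries labelled Dux KD-Usp17le OE against WT (adjusted p = 0.0552). Leaving out the libraries labelled Dux KD-Usp17le OE changed none of 5 counts and 45 gene results. The planned count models edgeR and DESeq2 were not run, because the table holds TPM. limma-voom on recovered reads, chosen after seeing the data, moved none of the 9 counts past 1.5 times. Leaving out those libraries and the ratios of subunits were also chosen after seeing the data.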
